A study of Drosophila melanogaster with 4 samples.

Results

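Far intergenic peaks are the peaks of immunoprecipitated Doublesex that lie on the autosomes, outside every annotated gene and more than 5000 bp from any transcript start. They were taken from the reproducible peak list by the position of the peak summit alone, with gene models on the dm6 build and transposable elements left out of the models. The rule kept 560 of 9154 reproducible summits, which fell in 539 distinct peak intervals. The list came from chromatin immunoprecipitation and sequencing (ChIP-seq) of whole Drosophila melanogaster prepupae, males and females pooled, with a labelled age of 24 h. The animals were of the strain dsx-GFP, a stable transgenic line that makes Doublesex with a C-terminal green fluorescent protein, and the precipitation used an antibody against that protein, although a further label field gives dsx as the antibody. The labels number 4 biological replicates of this 1 group, and do not say whether the tagged copy replaced the endogenous gene. Replicates 2, 3 and 4 entered the reproducible list, and replicate 1 did not. The lists give no read counts, so the depth of each sample is unknown.

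The somatic sex determination cascade of the fly ends in the transcription factor Doublesex. Its sex-specific splice forms share a zinc-finger DNA-binding domain and differ in their C-terminal part, so peaks from pooled males and females cannot be assigned to one form. Distal enhancers carry many of the binding sites through which such factors act on developmental genes, and the gene that an intergenic enhancer acts on need not be the nearest one. Peaks were placed by position here and no expression was measured.

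Doublesex recognises a palindrome-like site built on the heptamer ACAATGT, which reads ACATTGT on the opposite strand. The bases within 50 bp of the summits of the 8 strongest far intergenic peaks with that heptamer are printed because they carry the motif result. They are the + strand of dm6, with sequence from the RefSeq release of that assembly, 5′ to 3′, and capitals mark the heptamer. Names give the protein-coding genes on both sides. Peaks on one chromosome arm are not shown.
bab1/bab2 chr3L:1118591-1118691: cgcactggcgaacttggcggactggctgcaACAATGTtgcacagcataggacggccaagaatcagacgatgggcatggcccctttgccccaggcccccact
Or67d/CG12362 chr3L:10375769-10375869: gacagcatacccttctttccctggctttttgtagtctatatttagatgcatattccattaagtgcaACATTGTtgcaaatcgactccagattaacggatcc
plh/corto chr3R:5033447-5033547: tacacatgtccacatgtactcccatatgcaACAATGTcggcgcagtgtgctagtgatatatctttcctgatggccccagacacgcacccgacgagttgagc
mthl8/CG43149 chr3L:29808-29908: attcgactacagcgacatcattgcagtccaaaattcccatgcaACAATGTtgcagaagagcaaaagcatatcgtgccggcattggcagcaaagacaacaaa
CG18404/heca chr3R:30262085-30262185: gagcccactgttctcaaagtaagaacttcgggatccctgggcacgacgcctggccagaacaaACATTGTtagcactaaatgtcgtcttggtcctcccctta
AOX4/CG43335 chr3R:15568635-15568735: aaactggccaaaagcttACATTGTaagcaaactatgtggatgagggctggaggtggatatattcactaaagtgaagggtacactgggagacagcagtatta
Qsox2/Eip93F chr3R:21941491-21941591: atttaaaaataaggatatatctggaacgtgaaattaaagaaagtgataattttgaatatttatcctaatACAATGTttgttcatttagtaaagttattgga
bab1/bab2 chr3L:1121806-1121906: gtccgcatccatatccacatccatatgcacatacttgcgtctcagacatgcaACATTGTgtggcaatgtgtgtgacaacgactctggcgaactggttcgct

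In 3 of these windows, the first bab1 window and those beside CG12362 and mthl8, the heptamer on the strand shown is preceded by GCA and followed by TGC, so that the site reads the same on both strands outside the heptamer. The window between plh and corto and the second bab1 window have GCA before the heptamer alone. The remaining 3 windows have neither. The 2 strongest peaks without the heptamer, again outside that arm, are shown for contrast.
CG18404/heca chr3R:30259660-30259760: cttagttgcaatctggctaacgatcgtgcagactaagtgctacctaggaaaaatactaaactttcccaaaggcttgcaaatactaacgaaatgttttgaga
scyl/Dyro chr3L:11279556-11279656: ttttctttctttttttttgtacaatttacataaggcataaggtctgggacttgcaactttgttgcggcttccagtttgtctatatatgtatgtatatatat

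The peak beside scyl lacks ACAATGT but matches the degenerate Doublesex consensus, as actttgt, the reverse complement of ACAAAGT, between the same 3-base flanks. The peak beside CG18404 and heca matches neither, although it had the second highest signal value of all far intergenic peaks. The authors' signal value is the peak caller's own score, used here to rank and describe peaks within the reproducible list.

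The strongest far intergenic peak lay between bab1 and bab2, paralogous BTB-domain transcription factors that are known for sex-specific abdominal pigmentation. Its summit at 3L 1118641 was 17552 bp upstream of the nearest start, that of bab1, and its signal value was 13425, rank 9 of all reproducible peaks. The summit ranked 8, 12, 8 and 11 in the own lists of replicates 1 to 4. The heptamer was centred 17 bp from the summit. All 4 replicates thus placed this intergenic site among their 12 strongest summits.

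The peak at 3R 30259710, in the gap between CG18404 and heca, the headcase gene of imaginal cell differentiation, had a signal value of 12783 and rank 10. It ranked 14, 13, 9 and 10 in replicates 1 to 4. The gap held other strong peaks at 3R 30262135, with a value of 3951 and the heptamer, and at 3R 30265659, with a value of 2301 and no heptamer, 7896 bp from the start of lncRNA:CR46113. The peak at 3L 10375819 had a signal value of 12164 and rank 12, and ranked 20, 21, 10 and 8. The nearest start there was that of an unnamed noncoding RNA model 10538 bp away. CG12362 lay 36999 bp away, and Or67d, the receptor of the male pheromone cis-vaccenyl acetate, 101195 bp away. These 3 peaks stood apart from the others, since the next, between plh and corto, a chromatin-associated protein, had a value of 5443 and ranked 85, 100, 44 and 48. The start nearest to it was that of lncRNA:CR46352, 9528 bp away.

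The next peaks lay beside genes of several kinds. A peak at 2R 13035276 between Su(z)2, a Polycomb group gene, and CG13323 had a value of 4792 and held ACAAAGT but not ACAATGT. The peak beside scyl, a hypoxia-induced inhibitor of TOR signalling, and Dyro had a value of 4724 and lay 5044 bp upstream of lncRNA:CR44720, and a second peak between the same coding genes had 2329. The peak between mthl8, a member of the Methuselah-like receptor family, and CG43149 had a value of 4412 and ranked 74, 78, 112 and 108. The peak between AOX4, an aldehyde oxidase, and CG43335 had 3582 and ranked 285, 160, 142 and 110. Replicate 1, which did not enter the list, gave that peak its lowest standing.

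Signalling and metamorphosis genes flanked several others of the 25 strongest. A peak 11826 bp upstream of Eip93F, an ecdysone-induced transcription factor of metamorphosis, had a value of 2816 and ranked 197, 193, 276 and 313. A second one 7573 bp upstream of Eip93F had a value of 2246 and the heptamer. The peak between the Wnt ligands Wnt6 and Wnt10 had 2770 and ranked 192, 231, 248 and 433. A peak 14187 bp upstream of pxb, in the gap shared with CG43336, had 2688 and ranks from 252 to 295. The peak between en, the engrailed homeobox gene, and tou, a chromatin remodelling gene, had 2247 and ranked 877, 558, 228 and 310. A peak 5661 bp upstream of dally, a glypican that binds signalling ligands, and beside CG13309 had 2021 and ranked 262, 352, 447 and 1178. The peak 5037 bp upstream of hid, a trigger of apoptosis, and beside CG7320 had 1887 and ranked 581, 375, 757 and 667. These 7 summits lay within the strongest 1000 of every replicate, except that at dally in replicate 4.

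**Figure D1:**
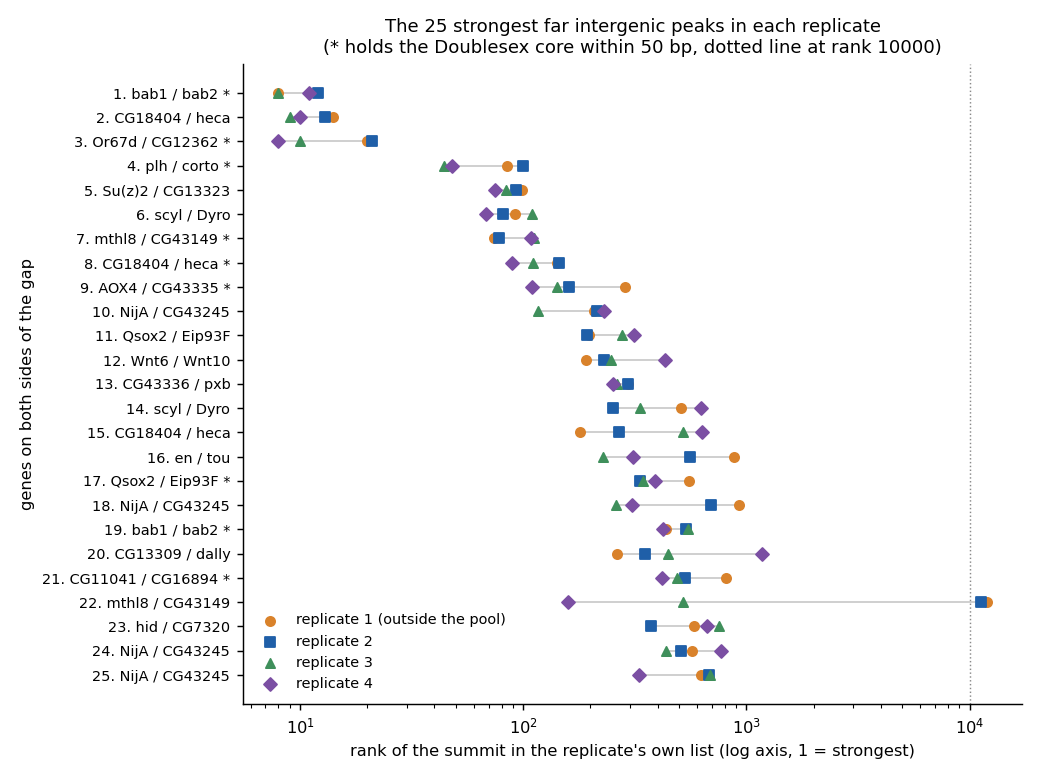
Rank of each of the 25 strongest far intergenic peaks in the own list of each replicate, on a log axis where 1 is the strongest summit. Rows give the flanking protein-coding genes, asterisks mark the heptamer, and grey lines join the lowest and highest rank. The row of the second mthl8 peak spans 158 to 11959.

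One of the 25 went against that pattern. The peak at 3L 30063, beside mthl8, had a value of 1889 and ranked 11959 and 11236 in replicates 1 and 2 but 521 and 158 in replicates 3 and 4. It lay close to the stronger mthl8 peak at 3L 29858, on the side of the higher coordinates. There were 41 summits so placed, less than 260 bp from a stronger one, among the 560 (7.32%), and results without them are given with the alternatives. Whether they are separate binding sites was not tested.

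Of the 25 strongest peaks, 9 held the heptamer (36.0%, exact 95% interval 18.0 to 57.5). Over all 560 the share was 10.9%, and equally strong peaks of other classes were not counted. The signal values of all 560 ran from 255.5 to 13425, with a median of 456.6 and quartiles of 325.1 and 714.5. Far intergenic peaks were about as strong as the rest of the list, with 265 of 560 (47.3%, 43.1 to 51.6) above 466.5, the median of the other autosomal peaks. Over all reproducible peaks the share above that value was 49.4%. The difference from other autosomal peaks did not pass the threshold of 0.05 (two-sided Fisher's exact test, p = 0.236).

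Doublesex's heptamer was found at the summit of about 1 in 10 far intergenic peaks. It lay within 50 bp of the summit in 61 of 560 (10.9%, 8.44 to 13.8), against 10 of 560 (1.79%) in equally long windows centred 500 bp to either side. Over all reproducible peaks the share was 8.06%. Of the far intergenic peaks, 58 had it at the summit alone and 7 in the flank alone (two-sided exact McNemar test, p = 4.27e-11). The 6.10-fold excess over the flank compares with 9.33-fold for intergenic peaks nearer to starts and 5.88-fold for intronic peaks. For promoter peaks, those within 500 bp of a start, it was 2.98-fold. The far and near intergenic ratios rest on 10 and 9 flank windows with the heptamer, and the uncertainty of the ratios was not computed. These intervals and tests treat peaks as separate, but peaks in one gap share their surroundings, and the intervals cover counting error only.

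The share with the heptamer was near that of other peaks away from promoters. Other autosomal peaks outside promoters had it in 427 of 4290 (9.95%), an odds ratio of 1.11 for far intergenic peaks (two-sided Fisher's exact test, p = 0.501). Intergenic peaks nearer to starts had 8.97%, intronic peaks 9.70% and promoter peaks 5.16%. The related heptamer ACAAAGT lay at 9.11% of far intergenic summits and the degenerate Doublesex consensus at 9.29%, where 27 of the 52 consensus matches also held ACAATGT. Together, 115 of 560 summits (20.5%) held at least 1 of these 3 sequences.

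**Figure D2:**
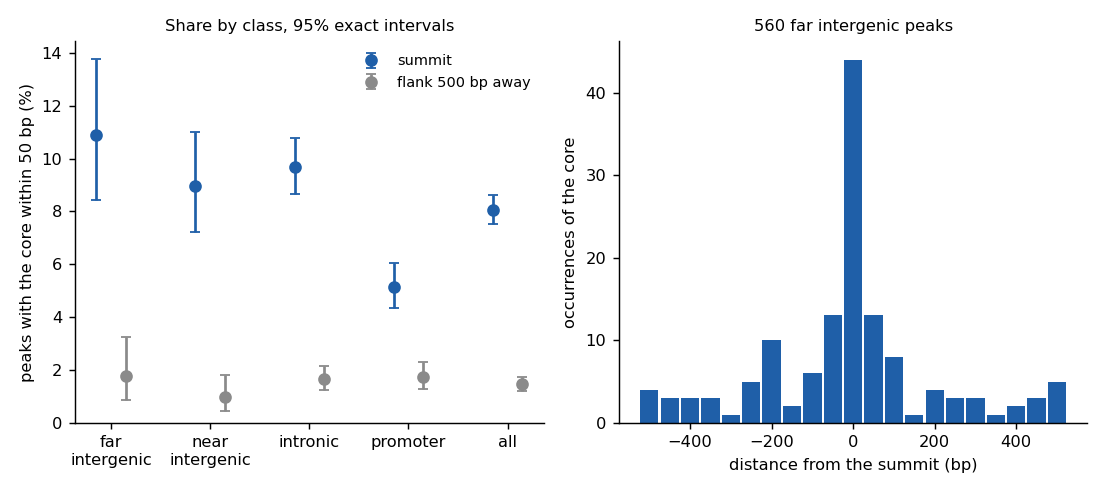
Left, percent of peaks with the heptamer within 50 bp of the summit and in the flank 500 bp away, with exact 95% intervals, for far intergenic (10.9% against 1.79%), near intergenic, intronic, promoter and all reproducible peaks. Right, occurrences of the heptamer in bins of 50 bp around the 560 far intergenic summits, with 44 in the central bin and at most 13 in any other.

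The heptamer sat close to the summit. In bins of 50 bp out to 500 bp from the summit, 44 copies lay in the central bin and at most 13 in any other. Among the 61 peaks that held it, the median distance of its centre from the summit was 17 bp, with 39 within 20 bp and 44 within 25 bp. These peaks were chosen for a copy within 50 bp, which bounds their distances. It lay on the lower-coordinate side in 30 and on the higher-coordinate side in 30, and 2 peaks held more than 1 copy. The heptamer was most frequent among the strongest peaks and least frequent among the weakest. In the stronger 50% of the list, 13.8% of far intergenic peaks held it, against 12.2% of other autosomal peaks outside promoters. In 5 groups of 112 peaks by falling signal value, the shares were 20.5% (13.5 to 29.2), 8.04%, 9.82%, 13.4% and 2.68% (0.556 to 7.63), so the middle groups did not follow a steady order.

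Peaks with the heptamer had a median signal value of 588.0, and those without it 447.3. They were also found in all 4 replicates more often, 47 of 61 (77.0%) against 253 of 499 (50.7%). In replicate 1, which did not enter the list, 83.6% (71.9 to 91.8) and 69.9% (65.7 to 73.9) were found among the strongest 10000 summits. Their mean GC content within 50 bp was 43.9%, against 34.9% without the heptamer. The part of signal strength or GC content in these differences was not tested.

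Copies of the heptamer inside a longer palindrome lay at peak summits far more often than other copies. The sequence that obeys the rule, 17.2 Mb in all, held 3046 copies of ACAATGT, of which 63 (2.07%, 1.59 to 2.64) lay within 50 bp of a reproducible summit. Of 2860 copies with neither flank of the printed palindrome, 35 did so (1.22%, 0.854 to 1.70). Of 175 copies with GCA before or TGC after, 20 did so (11.4%, 7.12 to 17.1). Of 11 copies with both, 8 did so (72.7%, 39.0 to 94.0), and 9 lay at a summit of the longer pooled list of 30000. These flanks were chosen after the strongest windows had been read, so the shares are descriptions without a test. The printed windows that carry the flanks are themselves counted among the 20 and the 8, which raises both shares.

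The same steps were seen nearer to genes. In near intergenic sequence the shares at a reproducible summit were 2.34%, 16.0% and 53.8% for 0, 1 and 2 sides, the last from 7 of 13 copies. In introns they were 2.73%, 19.4% and 71.4%, the last from 15 of 21 copies. A looser reading, with G and C alone at the third base out on each side, gave 1.38%, 1.84% and 10.7% in far intergenic sequence.

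**Figure D3:**
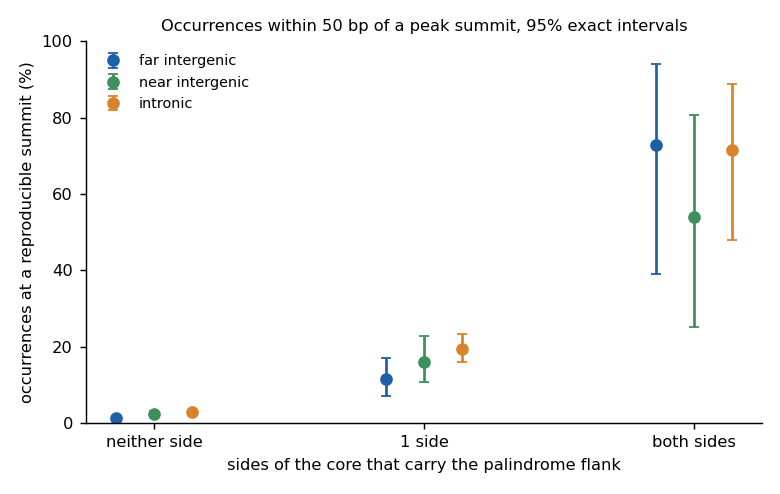
Percent of all copies of the heptamer that lie within 50 bp of a reproducible summit, by how many of its sides carry the palindrome flank, with exact 95% intervals. Far intergenic copies rise from 1.22% with neither side to 72.7% with both. The intervals of the 3 classes of sequence overlap at both sides, and the windows from which the flank was read are counted.

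The 8 far intergenic peaks with the full palindrome included those ranked 1, 3 and 7 by signal value among the 560. They were the peaks at 3L 1118641 and 3L 1120325 between bab1 and bab2, at 3L 29858 and 3L 30342 between mthl8 and CG43149, and at 3L 10375819 beside CG12362. The others lay at 3L 14376063 between CG13481 and CG43120, with a signal value of 1460, at 2R 15601104 between CG8204 and CG42524, with 513.1, and at 3R 29290505 between CG45544 and CG14506, with 308.8. Their median signal value was 1459, against 834.7 for the 20 peaks with 1 flank and 441.2 for the 33 with neither. Since the flanks were read off the strongest windows, this order was partly set by that choice and supports nothing by itself. The 3R peak was the weak one in replicates 1 and 2, at ranks 15694 and 10541, and ranked 5650 and 4512 in replicates 3 and 4. Both pairs share a gap, so these 8 are not 8 independent loci.

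Other sequence features were sought at the same summits, without a test. GAGAG, the site of GAGA factor, lay at 8.75% (6.54 to 11.4) of the far intergenic summits, against 10.4% and 12.7% in the flanks on the lower- and higher-coordinate side. It lay at 14.9% of intronic and 18.4% of promoter summits. The repeat CACACAC lay at 1.96% (0.985 to 3.49) of the far intergenic summits, against 3.93% and 5.0% in the flanks and 4.40% at intronic summits. TATCGATA was found at 1 summit, against 1 and 2 of the 560 windows in the flanks. CAGGTAG was found at 3, against 1 and 1, and CACGTG at 4, against 3 and 3. All motifs were sought on both strands. Mean GC content at the summits was 35.9% ± 11.1 (SD over 560 peaks), against 37.2% for near intergenic, 38.5% for intronic and 38.7% for other autosomal peaks.

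Far intergenic peaks were spread unevenly over gaps, which differ in length from 381 to 245765 bp among those with a peak. A gap here is the sequence between neighbouring gene models, and 220 of the 1196 gaps with sequence that obeys the rule held a peak (18.4%). There were 103 gaps with 1 peak, 46 with 2, 37 with 3 or 4 and 34 with 5 or more. Those 34 held 244 of the 560 peaks (43.6%), and the 10 fullest held 105 (18.8%). Another far intergenic peak lay within 1000 bp of 197 peaks (35.2%) and within 2000 bp of 286 (51.1%). The 560 include the 41 summits less than 260 bp from a stronger one, which may not be separate sites. Such shares are not given for other classes of peaks, so closeness is not called particular to these. The counts that gap length alone would give were not computed.

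The fullest gap was the 75047 bp at 3L 10696878 to 10771924 between NijA, a transmembrane Ninjurin, and CG43245, with 21 peaks over 49083 bp. Of these, 20 were found in replicate 1 and 0 held ACAATGT, which for 21 peaks allows a share of up to 14.3%. Signal values ran from 271.4 to 3272 with a median of 540.4. Its 4 strongest peaks, at 3L 10757812, 10760324, 10757177 and 10751514, had values of 3272, 2150, 1857 and 1834. In replicates 1 to 4 the first ranked 208, 213, 117 and 230, and the last 624, 677, 686 and 329.

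Other full gaps lay beside genes of several kinds. The gap between Qsox2, a sulfhydryl oxidase, and Eip93F at 3R 21915547 to 21949113 held 11 peaks, of which 1 had the heptamer and 9 were found in replicate 1. The gap between ems, the homeobox gene empty spiracles, and Art9, an arginine methyltransferase, held 10 peaks, the strongest with a value of 1533. The gap between Aps and CG14147 held 12, up to 1137, and that between CG11041 and CG16894 on 2R held 10, up to 1966 at a peak with the heptamer 28984 bp from the start of lncRNA:CR45229. The gap of 39339 bp between bab1 and bab2 held 9, of which 3 had the heptamer. Gaps of 8 peaks lay beside Su(z)2, beside Tollo, a Toll family receptor, beside hry, the hairy repressor, between vvl and Prat2, between CG15258 and CG44869, and between CG43402 and CG31928.

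**Figure D4:**
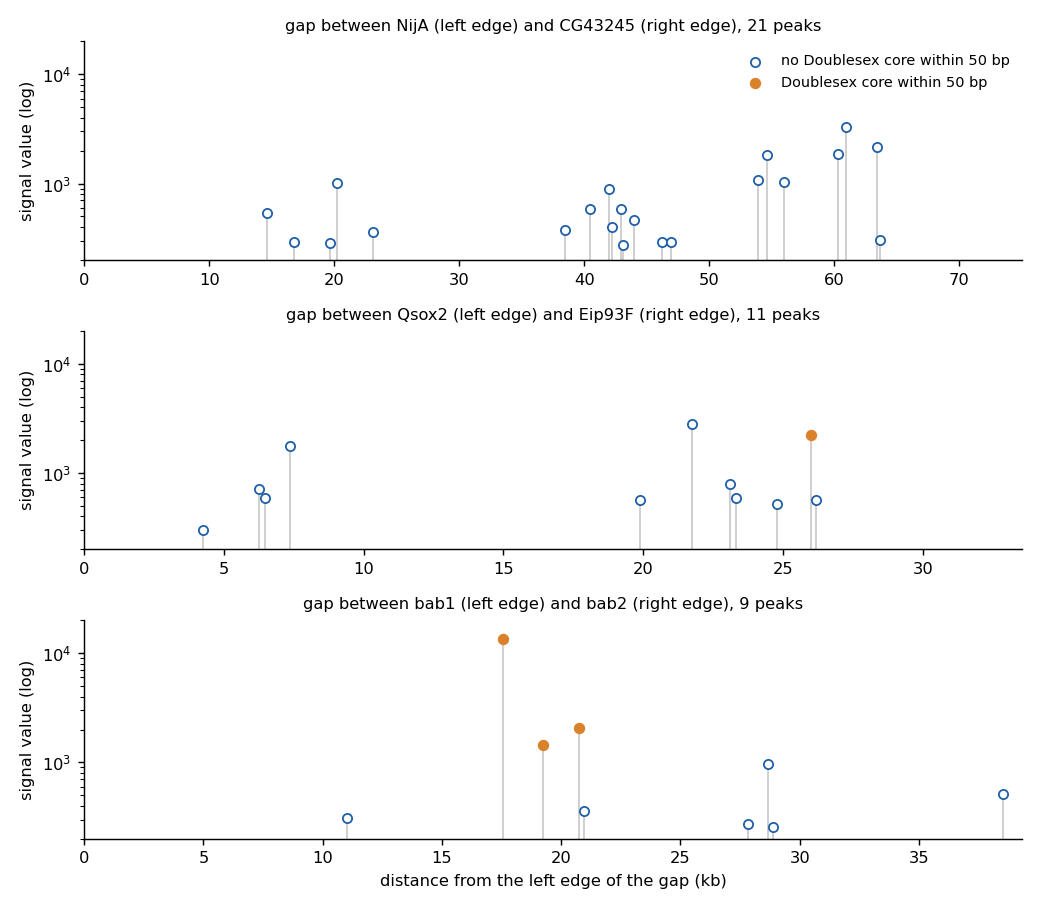
Signal value, on a log axis, of the far intergenic peaks in 3 gaps, by distance in kb from the left edge of the gap. Filled points hold the heptamer within 50 bp and open points do not: 0 of 21 between NijA and CG43245, 1 of 11 between Qsox2 and Eip93F, and 3 of 9 between bab1 and bab2.

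Between bab1 and bab2 the 3 peaks with the heptamer were the 3 strongest of the 9, at 3L 1118641, 1121856 and 1120325. Their values were 13425, 2057 and 1459. The peak at 1121856 ranked 434, 534, 548 and 421 in replicates 1 to 4, and that at 1120325 ranked 873, 804, 1093 and 783. The other 6 had values from 256.3 to 965.3. One of them, at 1139624, lay 805 bp from the end of bab2 and 37652 bp from its start.

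Reported Doublesex targets flanked 35 of the 560 peaks (6.25%), against 2.35% of near intergenic peaks. Of 23 autosomal genes on that list, 6 flanked a peak: bab1, bab2, wg, vvl, dpp and retn. For this list and those below, the share of all autosomal genes that flanked a peak is not given. Gap length was not matched either, so no excess is claimed. The 7 peaks beside wg, the Wingless ligand, had values up to 1019, in the gap shared with Wnt6, and 0 held ACAATGT. A further gap towards Wnt4 held 3 of these 7. Of the 11 peaks beside vvl, a POU-domain transcription factor, 9 lay towards Prat2 and 2 towards Rsph3. The strongest, at 3L 6824020, had 957.1 and ranked 2866, 2287, 1939 and 1338, and 1 of the 11, the one with 269.5, held ACAATGT. The 4 peaks between dpp, the BMP ligand, and Slh had values from 258.0 to 640.1 and 0 held it. The 4 beside retn, an ARID-domain factor of neuronal sexual behaviour circuits, and Eglp2 had values from 286.2 to 473.1, and 2 held it. Apart from those at the bab genes, these peaks ranked 1581 or weaker in the reproducible list.

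Of the 12 gene lists, patterning genes flanked the most far intergenic peaks. Homeobox and other patterning transcription factors flanked 106 peaks (18.9%) in 42 gaps, against 9.83% of near intergenic peaks, and 37 of the 104 listed autosomal genes flanked at least 1. The strongest, after bab1 and bab2, were beside en (7 peaks, up to 2247), ap (1 peak of 1752, with the heptamer) and tll (5 peaks, up to 1653). The strongest en peak lay 44802 bp from en, and the ap peak 21723 bp from ap. Their nearest starts were those of unlisted genes, 9623 and 5269 bp away. Of the 106 peaks, 17 held the heptamer, where 10.9% of all 560 and 8.06% of all reproducible peaks did. The 17 include the 3 between bab1 and bab2. Hox genes and cofactors flanked 9 peaks (1.61%, against 0.641% of near intergenic peaks), 2 beside Antp and 7 beside hth, with values up to 1100. The gap length of such genes was not matched, long gaps hold more sequence that obeys the rule, and lists share genes, so the shares are given without a test.

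Secreted signals and their receptors flanked 42 peaks (7.5%), against 4.17% of near intergenic peaks. The list also held a nuclear receptor gene, which flanked 2 of the 42. The strongest were beside Wnt6 and Wnt10, beside ptc, the Hedgehog receptor (5 peaks, up to 1685), and beside wg. Ecdysone genes flanked 12 peaks (2.14% against 2.03%), of which 11 were beside Eip93F and 1 beside Eip75B, a nuclear receptor. That 1 peak ranked 23340 in replicate 1 and 2842 in replicate 3. Cell death regulators flanked 2 (0.357% against 0.855%), the hid peak and a peak of 339.2 between rpr and skl that replicates 1 and 2 did not list at all.

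The lists of differentiated cell genes flanked at most 11 peaks each, and their shares are given beside those of near intergenic peaks. Odorant, gustatory and ionotropic receptors flanked 11 peaks (1.96% against 2.46%), 4 of them beside Or67d, and the next strongest, beside Or65a, had 463.2. Dpr, DIP, Beat and Side adhesion proteins flanked 4 (0.714% against 0.107%), up to 633.3 beside dpr17. Cuticle proteins flanked 3 (0.536% against 0.962%), all beside Cpr35B and up to 731.4. Ion channels and neurotransmitter receptors flanked 2 (0.357% against 0.641%), at 329.1 between nAChRalpha2 and nAChRbeta2 and at 323.8 beside Dop1R2. Odorant-binding proteins flanked 1 (0.179% against 1.28%), at 325.2 beside Obp56i. MicroRNA genes flanked 0 of 560. Flanking genes were taken from protein-coding models, which leave out microRNA genes, so that 0 says nothing about their share.

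The peaks lay a median of 8406 bp from the nearest start, with quartiles of 6434 and 12054. There were 208 beyond 10000 bp, 50 beyond 20000 bp and 14 beyond 30000 bp. The nearest start was that of a protein-coding gene for 378 (67.5%), of a noncoding RNA for 174 and of a tRNA for 8, and 274 peaks lay upstream of it against 286 downstream. The farthest peak, at 2R 6460333 between Pld and jing, a zinc-finger transcription factor, was 41439 bp from the start of lncRNA:CR46075 and held the heptamer. It had a value of 401.6 and ranked 7978, 7001, 5365 and 5480. The next were 39353 and 35978 bp away between AOX4 and CG43335, 37652 bp away between bab1 and bab2, and 36625 bp away between NijA and CG43245, with values from 375.8 to 571.6 and 0 with the heptamer.

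At the distance limit, the 5 peaks just inside lay 5029 to 5044 bp from a start and had signal values from 295.3 to 4724. The 5 intergenic peaks just outside lay 4982 to 4997 bp from one and had 307.3 to 1404. Neither group held the heptamer within 50 bp of a summit.

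Chromosome arm 3L held 222 peaks (39.6%), 3R 135 (24.1%), 2L 18.2% and 2R 18.0%, and chromosome 4 held 0. Neither the sequence that obeys the rule nor the share of other peaks is given per arm, so no arm is called richer or poorer. Per Mb of sequence that obeys the rule there were 32.6 peaks (exact Poisson 95% interval 29.95 to 35.4), against 67.0 in near intergenic sequence and 72.6 in introns. Far intergenic density was lowest at the ends of the arms next to the centromere. When each arm other than chromosome 4 was divided into 5 equal stretches, the one at the centromere held 8.49 of the 17.2 Mb but 32 peaks, or 3.77 per Mb. The next 4 held 37.9, 60.4, 102 (87.8 to 118) and 56.7 per Mb. Without the stretch at the centromere, chromosome 4 and transposable elements, all left out together, the densities were 69.1 (63.3 to 75.2), 76.6 (71.6 to 81.8) and 92.7 (89.4 to 96.2). The heptamer was then at a reproducible summit in 4.15% of its far intergenic copies, 4.12% of near intergenic and 5.17% of intronic ones, where over all sequence it had been 2.07%, 3.52% and 3.94%. Transposable elements covered 14.5% of the far intergenic sequence, and 2 of the 560 summits (0.357%) lay in one.

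**Figure D5:**
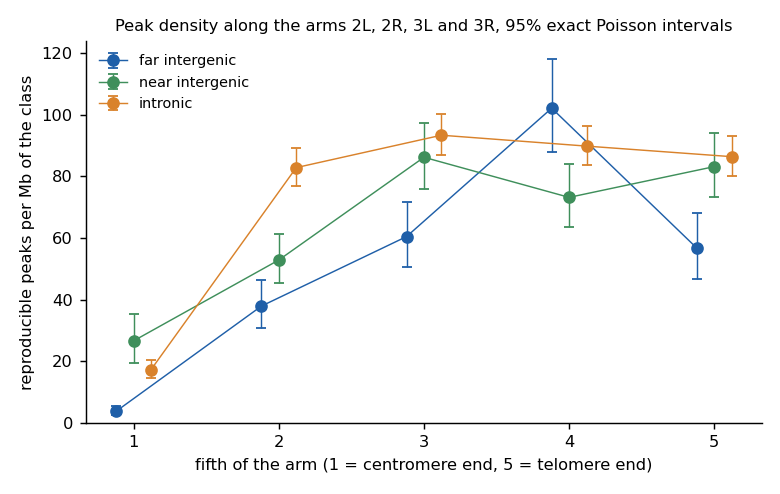
Reproducible peaks per Mb of far intergenic, near intergenic and intronic sequence in 5 equal stretches of each large autosomal arm, from the centromere end to the telomere end, with exact Poisson 95% intervals. Far intergenic density runs from 3.77 per Mb at the centromere to 102 per Mb in stretch 4.

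Replicates differed in how many of the far intergenic peaks they held. A peak counted as found where a summit among the replicate's strongest 10000 lay within 100 bp. Replicate 1 held 400 of 560 (71.4%), against 74.0% over all reproducible peaks. Replicates 2, 3 and 4, from which the list was made, held 423 (75.5%), 507 (90.5%) and 489 (87.3%). The mean was 81.2% ± 9.17 (SD, n = 4), with replicates 1 and 2 below it and 3 and 4 above. Of the 560, 300 were found in all 4 (53.6%, against 53.2% over all reproducible peaks), 132 in 3, 103 in 2, 17 in 1 and 8 in 0.

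Other autosomal peaks were found in 73.7%, 81.5%, 85.7% and 82.8% by replicates 1 to 4. Far intergenic peaks were thus different by -2.27 and -5.93 percentage points in replicates 1 and 2 and by 4.88 and 4.48 in replicates 3 and 4. The mean difference was 0.291 percentage points and did not pass the threshold (two-sided exact sign-flip permutation over n = 4 replicates, p = 1, where the smallest p is 2 of 16 sign patterns and cannot pass 0.05). The mean GC content of the replicates' own strongest 10000 summits was 40.1%, 39.0%, 37.7% and 38.8%. Among peaks with a GC content of at most 38.6%, replicates 1 to 4 found 68.1%, 78.2%, 92.0% and 85.6% of the far intergenic ones and 74.0%, 83.1%, 91.6% and 85.5% of the others. Above it they found 76.9%, 71.2%, 88.2% and 90.1%, and 73.4%, 79.7%, 79.4% and 80.0%. In replicates 3 and 4 the shares thus lay close together at the lower GC content, and far intergenic peaks had the higher share above it. In replicate 1 they had the lower share at the lower GC content alone, and in replicate 2 on both sides. Of the far intergenic peaks 62.1% lay at or below 38.6%, against 51.5% of the others. The part of GC content in these differences was not tested.

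Applied to each replicate's own strongest 10000 summits, the rule kept 541, 531, 664 and 640. The heptamer lay at 9.80%, 9.60%, 9.04% and 10.5% of these, a mean of 9.73% ± 0.591 (SD, n = 4). The other autosomal summits outside promoters had it at 6.71%, 8.23%, 9.55% and 9.84%. The differences were 3.08, 1.37, -0.516 and 0.631 percentage points, positive in 3 of 4 replicates (two-sided exact sign-flip permutation, n = 4, p = 0.25). Replicate 1 therefore showed the heptamer at its far intergenic summits at a share within the range of the other 3.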

How the data were processed

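Notes deposited with the peak lists name dm6 as the build. Per these notes, the authors called each replicate against 1 control file, made a pooled list from replicates 2, 3 and 4, and derived the reproducible (optimal IDR, irreproducible discovery rate) list from those replicates. Each replicate list and the pooled list hold 30000 summits, a fixed length and not a count of sites. The aligner, the peak caller and the IDR threshold were not given in the sources used here. The signal value is the authors' deposited score per peak and is not normalized between lists. The other deposited column used is the summit's offset within its interval, printed here as a 1-based coordinate. Signal tracks and the control were not used here.

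Summits were placed on Ensembl release 115 gene models without transposable elements. Promoter peaks lay within 500 bp of a start, and other classes were intergenic, intronic and exonic. Motifs were sought within 50 bp of summits and in windows centred 500 bp away, of which the richer flank was used. Tests were two-sided exact McNemar, Fisher and sign-flip permutation tests with a threshold of 0.05. Intervals are exact (Clopper-Pearson or Poisson) at 95% and cover counting error only. A gap is named by the protein-coding genes on both sides. The text names genes for the 25 strongest peaks, the 5 farthest, the 5 fullest gaps and every peak beside a reported Doublesex target, and at most 4 genes with the strongest peak in each other list. All further gaps of 8 peaks or more and the peaks with the full palindrome were named after their values were seen. The list of patterning genes held neither ems nor the current symbol hry. The peaks, gene lists and tests were chosen with earlier results of these data known. Functions were tested on simulated data with known answers. Python 3.11.15, pandas 2.3.3, NumPy 2.4.6, SciPy 1.17.1 and matplotlib 3.10.9 were used. Alternatives covered distances, gene models, windows, motifs, list lengths, secondary summits, 1 peak per gap and each replicate left out.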

Additional observations from a re-analysis of the deposited data

Results flagged for a closer look

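Among 31 measures over the 4 replicates, 2 had a replicate far from the other 3, with a Dixon ratio (the gap to the nearest other replicate over the whole range) above the 95% critical value for 4 samples. Both were ranks, on a log10 scale, of peaks in the gap between NijA and CG43245. The peak at 3L 10757812 ranked 208, 213, 117 and 230 in replicates 1 to 4, a ratio of 0.851 set by its higher standing in replicate 3. The peak at 3L 10751514 ranked 624, 677, 686 and 329, a ratio of 0.871 set by its higher standing in replicate 4. Chance flags about 1 in 20 such measures.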

How the results depend on the processing

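The number of far intergenic peaks followed the rule: it was 1014 at 2000 bp and 208 at 10000 bp from starts, 945 with protein-coding gene models alone, and 269 in the stronger 50% of the list. The share with the heptamer stayed above the flank, past the threshold, under the 11 alternatives run on it, at 7.32% to 13.8%. So did the share with the degenerate consensus in its place, at 9.29%. Of the 11, the check with RefSeq models and the use of the other flank gave the main values again. The odds ratio against other peaks outside promoters was 0.994 (exact test, p = 1) with protein-coding models and 1.01 to 1.27 under the other 10 alternatives, the consensus among them, none of which passed. With the strongest peak of each gap alone, 56.8% lay above the median signal of other peaks (Fisher's exact test, p = 0.0473), where the choice by signal raises the share by construction; the other 6 alternatives gave 44.6% to 49.5% and did not pass. Mean support over replicates was 69.3% within 50 bp, 47.0% among the strongest 5000 and 91.5% among the strongest 20000, and 78.1% to 84.5% with a replicate left out. The mean share of the heptamer in the replicates' own far intergenic summits was 12.7% among the strongest 5000, 6.70% among 20000, 6.05% within 25 bp and 12.5% within 100 bp, and 9.48% to 9.96% with a replicate left out. The check with RefSeq models, added after seeing the data, kept all 560. No paired analysis was possible because the series holds 1 group, so that no replicate numbers are shared between groups. The sign-flip tests compare classes of peaks within each replicate.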
